A study of Mus musculus with 12 samples.

Results

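The effect of the garlic compound PTSO on the transcriptome of CMT-93 cells was measured over the whole crossed design, with the 6 libraries that received PTSO set against the 6 that did not. All 12 libraries of the series entered the comparison, and each was placed by its treatment label. CMT-93 is an epithelial cell line from a mouse rectal carcinoma. The 6 libraries without PTSO were 3 of control cells, given vehicle only, and 3 of cells given Trichuris muris antigens at 100 µg/mL. The 6 with PTSO were 3 of cells given 20 µM PTSO and 3 of cells given 20 µM PTSO followed by the antigens. The compound or vehicle was added 30 minutes ahead of the antigens, and cells were collected 6 hours later. Antigen exposure was the second term of the model, so the PTSO coefficient is 1 shared shift estimated over cells with and without antigens.

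The labels leave several points unsettled. The compound is spelled PSTO in the growth protocol and PTSO-PTS in the design text, and the series title names LPS where the sample labels name T. muris. Separate cultures for the 3 libraries per group are not stated, so the p-values measure only the spread between these samples, which may be technical. In bulk RNA of this kind, fewer cells of a state and less RNA per cell cannot be told apart.

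PTSO, propyl propane thiosulfonate, belongs to the organosulfur compounds of Allium plants, which react with thiol groups. Epithelial cells meet such compounds with several well known programmes, among them glutathione and thioredoxin enzymes, heat shock chaperones and the integrated stress response. Some of the reducing enzymes are selenoproteins, in which the codon UGA is read as selenocysteine in place of a stop. Trichuris muris is a whipworm that lives in the epithelium of the mouse large intestine.

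Total counts ran from 16.7 to 34.5 M without PTSO and from 19.6 to 30.3 M with it. The mitochondrial share of counts was 1.2% to 1.57% without PTSO and 0.897% to 1.38% with it. On the principal component with 15.34% of the variance, control libraries 2 and 3 lay at -24.65 and -25.85, apart from control library 1 at -5.82, and PTSO library 2 lay at -26.81 on the component with 11.22%. Most results are therefore also given without control libraries 2 and 3, from the same additive model on the other 10 libraries, called the fit of 10 libraries. That fit keeps only control library 1 of the control cells, so it leans on the antigen-exposed cells. A deviation of control libraries 2 and 3 and a difference between the antigen backgrounds cannot be told apart in it. Of 14 epithelial identity markers, 12 were tested, and Epcam, Krt8, Krt18, Krt19 and Cdh1 were abundant, whereas the intestinal markers Cdx1 and Muc13 had 0 and 1 counts over all libraries. The leukocyte marker Ptprc had 11 counts over all libraries and Tyrobp had 0. Of 13 fibroblast and endothelial markers, 4 (Col3a1, Dcn, Lum and Pdgfrb) were at 0 and 4 were tested, with a median log2 fold change of -0.43 for PTSO. The summed level of the 4 tested markers was 7.26 to 9.33 CPM without PTSO and 4.17 to 7.52 CPM with it. The endothelial receptor gene Tek was the member called lower (-0.55 ± 0.16, adjusted p = 0.0463), a call that ended without control libraries 2 and 3 (-0.61, adjusted p = 0.0618) and without any 1 of 9 libraries, namely control 3, the 3 PTSO libraries, the 3 T. muris libraries and PTSO + T. muris 1 and 2 (adjusted p = 0.063 to 0.118). The part of such cells in the other results was not tested.

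A limited share of the genes tested was called for PTSO, mostly with small changes. The number called depends on the libraries and the model used, as given below, and a gene not called may still have changed. Of 15267 genes tested, 844 were called at an adjusted p under 0.05 (edgeR's quasi-likelihood F-test with Benjamini-Hochberg adjustment), which is 5.53% of the genes tested. Of these, 361 were higher with PTSO (2.36%) and 483 were lower (3.16%). The counts called in the gene lists below are to be read beside these shares. Called changes had a median size of 0.248 on the log2 scale, or 1.19-fold, and 735 of the called genes (87.1%) changed by less than 0.5. A change of at least 1 was seen in 31 called genes, 18 higher and 13 lower. In 318 called genes (2.08% of those tested) the 6 libraries with PTSO did not overlap the 6 without it, 133 (0.871%) with every PTSO library above and 185 (1.21%) with every PTSO library below. The genes named below for a large change or a small p-value were taken from these 318, so the separation of their groups was fixed by that choice. Unannotated loci, predicted genes and Riken clones made up 46 of the 844 and are not named.

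**Figure D1:**
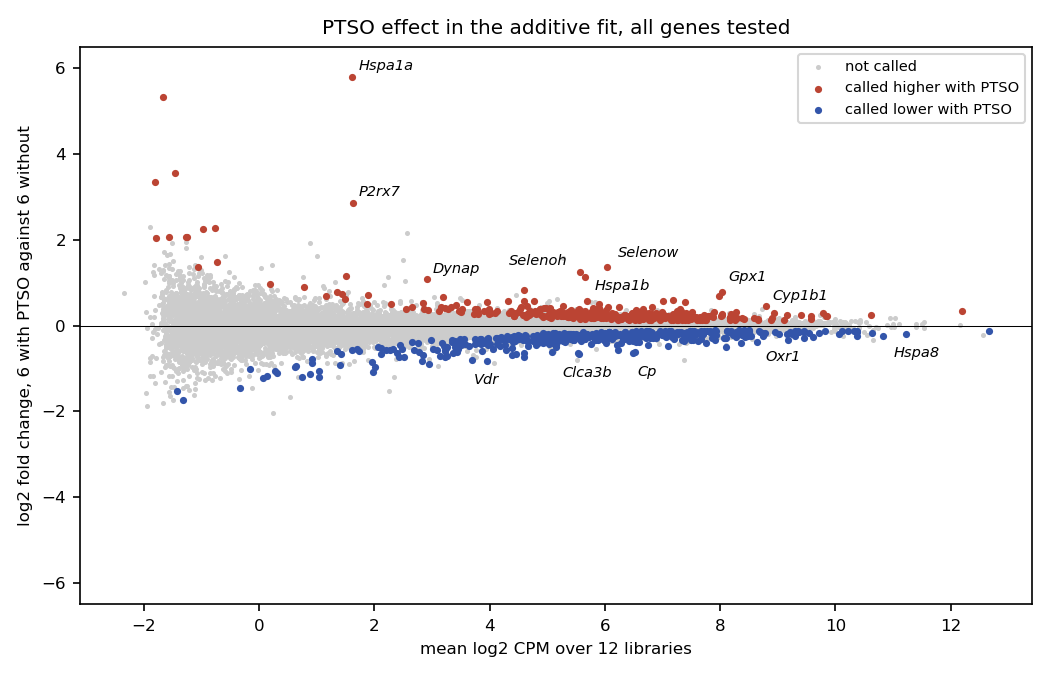
The log2 fold change for PTSO (6 libraries with against 6 without, additive fit) is plotted against the mean log2 CPM over 12 libraries, with 1 point for each of the 15267 genes tested. The 361 genes called higher are red and the 483 called lower are blue, and 735 of the 844 called genes lie within 0.5 of the zero line.

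Selenoprotein genes held the 3 smallest p-values of the whole fit among genes that rose, and their selenocysteine codons are shown here for that reason. Each line gives the transcript bases around the codon, 5′ to 3′, from the annotated mouse transcripts, with the selenocysteine TGA in capitals. In Txnrd1 the stop codon taa follows ggt, and the bases after that stop are not coding. The codon is number 47 in Gpx1, 13 in Selenow, 38 in Selenoh, 498 in Txnrd1 and 63 in Sephs2.
Gpx1: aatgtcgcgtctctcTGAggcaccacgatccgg
Selenow: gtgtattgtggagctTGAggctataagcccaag
Selenoh: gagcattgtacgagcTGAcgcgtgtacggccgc
Txnrd1: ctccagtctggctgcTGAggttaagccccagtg
Sephs2: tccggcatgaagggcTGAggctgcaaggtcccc

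Gpx1 (ENSMUSG00000063856), the cytosolic glutathione peroxidase that reduces hydrogen peroxide, was between 178 and 201 CPM (median 192) without PTSO and between 301 and 353 CPM (median 336) with it. CPM is the usual count relative to library size, here scaled by TMM, the trimmed mean of M-values normalisation. Its log2 fold change was 0.78 ± 0.034 (SE), with adjusted p = 7.72e-12, and all 6 PTSO libraries lay above the other 6. Selenow (ENSMUSG00000041571), a small thioredoxin-like selenoprotein, was between 32 and 44.9 CPM (median 35.7) without PTSO and between 88.5 and 99.6 CPM (median 95.1) with it. This was a 2.56-fold rise, a log2 fold change of 1.36 ± 0.063, with adjusted p = 1.16e-10. The nuclear selenoprotein gene Selenoh (ENSMUSG00000076437) was between 24 and 32.1 CPM (median 28.4) without PTSO and between 57.8 and 75 CPM (median 65.5) with it. Its rise was 2.39-fold, a log2 fold change of 1.26 ± 0.059 with adjusted p = 2.68e-11. In each of these 3 genes the lowest PTSO library exceeded the highest library without PTSO. Without control libraries 2 and 3 the log2 fold changes were 0.79 for Gpx1, 1.42 for Selenow and 1.19 for Selenoh.

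The rise did not extend to the selenoprotein genes as a whole. Of 24 genes with an annotated selenocysteine codon, 21 passed the filter on low counts. Of those, 6 were called higher and 2 lower, and the median log2 fold change was 0.02, against 0.00 over all genes tested. The fit of 10 libraries gave 5 higher and 2 lower, with a median of 0.03. Txnrd1, the cytosolic thioredoxin reductase, was between 171 and 235 CPM (median 224) without PTSO and between 238 and 280 CPM (median 263) with it. Its log2 fold change was 0.31 ± 0.049 with adjusted p = 0.000983, and 0.22 without control libraries 2 and 3. Gpx4, the peroxidase that acts on lipid hydroperoxides and a gene chosen after its values were seen, had a log2 fold change of 0.04 ± 0.035 with adjusted p = 0.578, and 0.06 in the fit of 10 libraries. The count of called members was 5 when control 2, PTSO 2, PTSO 3 or PTSO + T. muris 1 was left out, with 4 higher and 1 lower each time. Selenof and Selenok, 2 endoplasmic reticulum selenoproteins named after their values were seen, made up the difference among the higher genes, with log2 fold changes of 0.13 and 0.16. The call of Selenof ended in these 4 fits (adjusted p = 0.057 to 0.0731), and that of Selenok in every fit that left out a library other than control 3 or T. muris 3 (adjusted p = 0.0532 to 0.0972).

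Gpx3, the secreted glutathione peroxidase, was between 2.54 and 4.58 CPM (median 2.97) without PTSO and between 1.79 and 2.23 CPM (median 2.07) with it, a log2 fold change of -0.66 ± 0.17 with adjusted p = 0.0241. The groups did not overlap, but the call ended when any of 6 libraries was left out. Those were control 2 (adjusted p = 0.0797), PTSO 1, 2 and 3 (0.0533, 0.0539 and 0.0662), T. muris 3 (0.0514) and PTSO + T. muris 1 (0.056). Without control libraries 2 and 3 together the value was -0.47 with adjusted p = 0.236.

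The list for selenocysteine synthesis and insertion also held Selenbp1, Selenbp2, Lrp8 and Scly, which do neither. Of its members 14 were tested, 0 were called higher and 1 was called lower, against 3.16% of all genes tested. That gene was Sephs2 (ENSMUSG00000049091), which makes selenophosphate, the selenium donor, and is itself a selenoprotein. It was between 54.4 and 72.8 CPM (median 62.5) without PTSO and between 42.7 and 54.4 CPM (median 45.2) with it. Its fall was 0.42 on the log2 scale (log2 fold change -0.42 ± 0.070, adjusted p = 0.00149), and the highest PTSO library, PTSO 1, sat just under the lowest library without PTSO. The fit of 10 libraries gave -0.51. A second member was called lower when PTSO + T. muris 3 was left out.

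**Figure D2:**
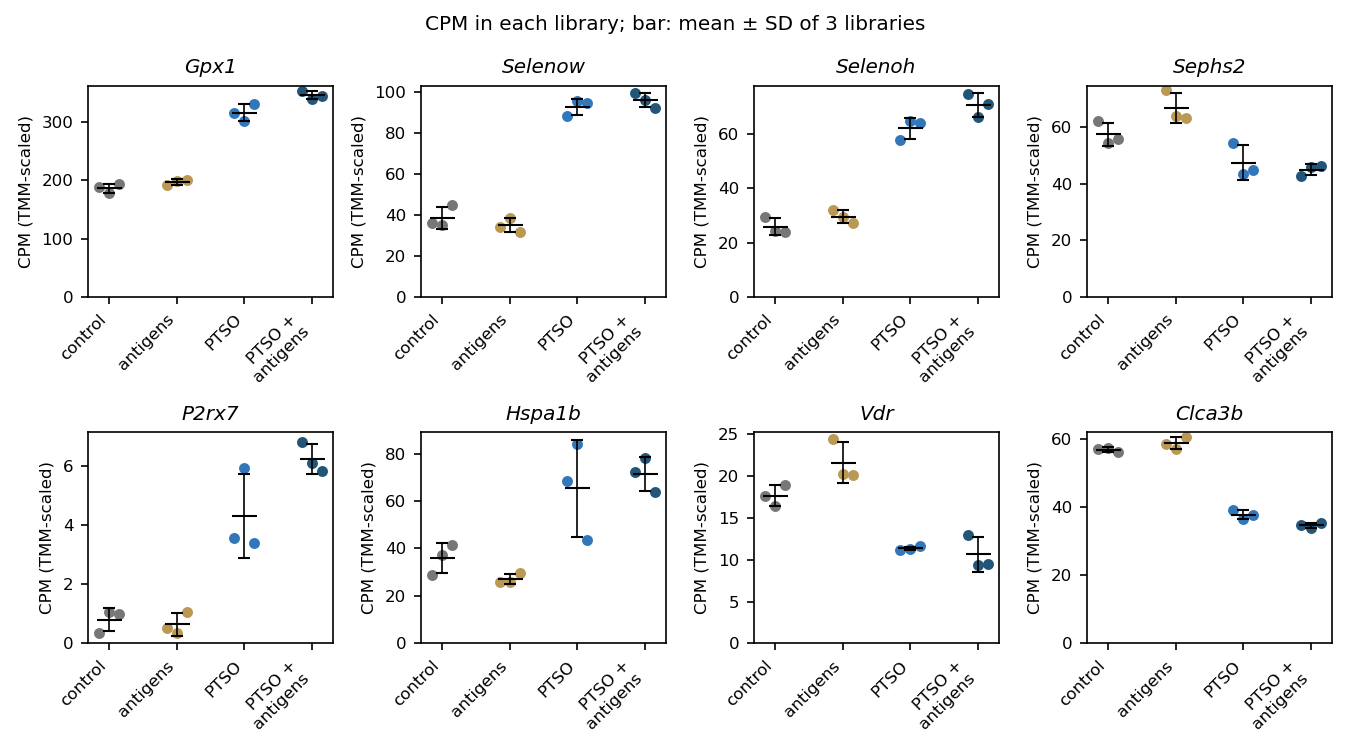
TMM-scaled CPM in each of the 12 libraries for 8 genes, with 3 points per group and bars for the mean ± SD of 3 libraries. Gpx1, Selenow, Selenoh, P2rx7 and Hspa1b lie higher and Sephs2, Vdr and Clca3b lower in both groups that received PTSO, and the 3 points of the PTSO group spread widely for Hspa1b (43.5 to 84 CPM).

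The heat shock response showed a change in its inducible HSP70 genes and little elsewhere. Hspa1a and Hspa1b encode near-identical inducible HSP70 chaperones, and how the counting divided reads between such copies is not given in the sources used here. Their promoters are shown because they differ at few bases and both hold a heat shock element. Both sequences are from RefSeq on GRCm38.p6, minus strand, 250 bases before to 50 after the start. Hspa1a lies at chr17:34972107-34972406 and Hspa1b at chr17:34959189-34959488. Capitals mark the only match to the heat shock element letters GAANNTTC, which begins 104 bases before the start in both.
Hspa1a: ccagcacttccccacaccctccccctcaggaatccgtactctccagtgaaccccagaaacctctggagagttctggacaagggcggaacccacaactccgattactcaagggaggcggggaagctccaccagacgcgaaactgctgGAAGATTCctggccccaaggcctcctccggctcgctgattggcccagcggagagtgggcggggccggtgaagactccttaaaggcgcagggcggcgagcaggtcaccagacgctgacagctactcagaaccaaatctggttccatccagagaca
Hspa1b: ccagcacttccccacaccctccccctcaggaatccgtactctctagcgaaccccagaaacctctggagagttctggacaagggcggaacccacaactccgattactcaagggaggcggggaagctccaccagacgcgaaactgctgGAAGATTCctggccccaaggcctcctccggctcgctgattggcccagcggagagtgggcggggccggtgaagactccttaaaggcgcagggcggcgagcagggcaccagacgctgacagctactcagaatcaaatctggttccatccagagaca
The sequences carry the same base at 296 of 300 positions (98.7%). A match to these letters on either strand was found in 5.65% of the promoters of all genes tested, 6.86% of those of genes called higher and 5.75% of those of genes called lower.

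Hspa1a (ENSMUSG00000091971) had 15 counts in the 6 libraries without PTSO, 1 of which had 0, and 910 counts in the 6 with it. Its level was between 0 and 0.23 CPM (median 0.0499) without PTSO and between 2.19 and 9.32 CPM (median 5.75) with it. The fitted log2 fold change was 5.81 ± 0.52 with adjusted p = 6.35e-05. Hspa1b (ENSMUSG00000090877) was between 25.7 and 41.4 CPM (median 29.4) without PTSO and between 43.5 and 84 CPM (median 70.5) with it. It rose 2.19-fold, a log2 fold change of 1.13 ± 0.18 with adjusted p = 0.00682. The sum of both genes, which does not depend on how the counted reads were divided between them, was between 25.8 and 41.6 CPM (median 29.4) without PTSO and between 45.7 and 93.4 CPM (median 76.6) with it. Whether reads matching both copies were left uncounted is not given, and such reads would be missing from the sum. All 6 PTSO libraries were higher in each gene and in the sum. Without control libraries 2 and 3 the log2 fold changes were 5.99 for Hspa1a and 1.33 for Hspa1b.

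Of 22 heat shock genes tested, 2 were called higher and 2 lower, against 2.36% and 3.16% of all genes tested. The median log2 fold change of the list was 0.02, and -0.02 without control libraries 2 and 3. When control 1 was left out, 5 were called higher and 3 lower. The constitutive HSP70 gene Hspa8, whose mRNA is abundant in these cells, was between 2470 and 2600 CPM (median 2580) without PTSO and between 2170 and 2360 CPM (median 2220) with it. It fell by 0.20 on the log2 scale (log2 fold change -0.20 ± 0.027, adjusted p = 0.000214), with no overlap between the groups. Cryab, a small heat shock protein of the alpha-crystallin family, had a log2 fold change of -0.45 ± 0.10 (adjusted p = 0.0109), and -0.30 with adjusted p = 0.109 without control libraries 2 and 3. Zfand2a, a stress-inducible gene whose product binds the proteasome and which was chosen after its values were seen, was between 83.2 and 97.4 CPM (median 91.8) without PTSO and between 106 and 120 CPM (median 114) with it, a log2 fold change of 0.33 ± 0.042 with adjusted p = 9.80e-05. Hspa8 and Zfand2a had -0.20 and 0.28 in the fit of 10 libraries.

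P2rx7 (ENSMUSG00000029468), the ATP-gated cation channel P2X7, had the largest rise after Hspa1a among the genes named for a large change. It was between 0.348 and 1.08 CPM (median 0.762) without PTSO and between 3.41 and 6.82 CPM (median 5.89) with it. This was a 7.31-fold rise, a log2 fold change of 2.87 ± 0.28 with adjusted p = 1.41e-05, and 3.41 without control libraries 2 and 3. P2rx7 was the only member called among 15 purinergic signalling genes tested, against 5.53% of all genes tested. The median log2 fold change of the list was -0.10. When T. muris 2 was left out, 1 other member was called lower.

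Other rises named for their size were smaller. Dynap, which encodes a dynactin-associated protein, was between 3.19 and 6.55 CPM (median 5.01) without PTSO and between 7.27 and 11.6 CPM (median 10.6) with it, a log2 fold change of 1.08 ± 0.17 with adjusted p = 0.00102. Odaph, known from enamel formation, had a log2 fold change of 0.67 ± 0.12 (adjusted p = 0.00234). For Acsbg1, a fatty acyl-CoA synthetase, it was 0.58 ± 0.12 (adjusted p = 0.0133). Without control libraries 2 and 3 these 3 values were 0.85, 0.46 and 0.38.

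The 2 mitochondrial ribosomal RNAs also rose, whereas the mitochondrial mRNAs did not pass the test. The large ribosomal RNA mt-Rnr2 was between 167 and 212 CPM (median 201) without PTSO and between 255 and 350 CPM (median 319) with it, a log2 fold change of 0.69 ± 0.082 with adjusted p = 0.00074. For the small one, mt-Rnr1, the log2 fold change was 0.33 ± 0.053 with adjusted p = 0.00151. Without control libraries 2 and 3 these values were 0.74 and 0.37. Of 13 mitochondrial mRNAs, 0 were called by edgeR, and their median log2 fold change was -0.03. The nuclear noncoding RNA Rn7sk, which restrains the elongation factor P-TEFb, had a log2 fold change of 0.84 ± 0.21 (adjusted p = 0.0469), but its call ended when any of 8 libraries was left out. Those were all 3 control libraries, PTSO 2, T. muris 1 and 3, and PTSO + T. muris 1 and 2 (adjusted p = 0.0647 to 0.116). The labels name total RNA and give no step of poly(A) selection or ribosomal RNA removal, and the part of such a step in these values was not tested.

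Targets of the aryl hydrocarbon receptor, a ligand-activated transcription factor that senses plant compounds, had 2 of 8 tested members called higher and 0 lower. In the fit of 10 libraries 2 were called higher and 1 lower, and the counts were the same without control 3. The list median was 0.14, and 0.12 in the fit of 10 libraries. Cyp1b1, a cytochrome P450 enzyme, was between 311 and 431 CPM (median 388) without PTSO and between 492 and 552 CPM (median 512) with it. Its log2 fold change was 0.46 ± 0.049 with adjusted p = 4.03e-05, and 0.38 without control libraries 2 and 3. Tiparp, an ADP-ribosyltransferase that limits the receptor, was between 79.2 and 147 CPM (median 122) without PTSO and between 153 and 199 CPM (median 174) with it, with a log2 fold change of 0.60 ± 0.11 and adjusted p = 0.0139, and 0.44 without control libraries 2 and 3. The groups did not overlap for either gene. The letters GCGTG of the xenobiotic response element are in 49.6% of the promoters of all genes tested and in 54.6% of those of genes called higher.

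Some genes of growth factor signalling and early transcription were called higher. Of 27 immediate early and MAPK feedback genes, 9 were called higher and 1 lower, and the median log2 fold change was 0.19. In the fit of 10 libraries, 10 were called higher and 0 lower, and the median was 0.08. Fos, of the AP-1 transcription factor, was between 34.2 and 56.8 CPM (median 53.7) without PTSO and between 65.5 and 74.1 CPM (median 69) with it. Its log2 fold change was 0.51 ± 0.085 with adjusted p = 0.0032. Fosb, another AP-1 subunit, rose 2.23-fold from a median of 1.63 to 3.63 CPM (log2 fold change 1.16 ± 0.24, adjusted p = 0.00731), with the groups overlapping only between 2.68 and 2.71 CPM. Ier5, an immediate early gene, rose by 0.35 ± 0.066 and Junb, an AP-1 subunit, by 0.21 ± 0.038 on the log2 scale. Junb shares 7.52% of its exon bases with Prdx2 on the opposite strand, and whether the counting used strand is not given in the sources used here. With control libraries 2 and 3 left out the log2 fold changes were 0.36 for Fos, 1.12 for Fosb, 0.24 for Ier5 and 0.21 for Junb.

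Laminin genes of the epithelial basement membrane, which cells lay down during wound repair, were among those that rose. Lama3, an alpha chain gene, was between 132 and 147 CPM (median 142) without PTSO and between 169 and 194 CPM (median 178) with it, a log2 fold change of 0.35 ± 0.037 with adjusted p = 1.12e-05. The beta chain gene Lamb3 had 0.22 ± 0.046 (adjusted p = 0.0078). Lif, a cytokine of the interleukin-6 family, was between 22.8 and 28.7 CPM (median 27) without PTSO and between 33.5 and 36.7 CPM (median 34.7) with it, a log2 fold change of 0.40 ± 0.056 with adjusted p = 0.000214. Of 21 tested genes for epidermal growth factor ligands and wound repair, 5 were called higher and 0 lower, with a median of 0.09. In the fit of 10 libraries, 4 were higher and the median was 0.04. The values for Lama3, Lamb3 and Lif were then 0.35, 0.14 and 0.34.

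Genes of activin and TGF-beta signalling moved in both directions. Inhba, which encodes the activin A subunit, was between 83.9 and 102 CPM (median 98.9) without PTSO and between 120 and 142 CPM (median 127) with it, a log2 fold change of 0.43 ± 0.051 with adjusted p = 5.85e-05. Smad7, a feedback inhibitor of the pathway, had 0.32 ± 0.056 (adjusted p = 0.0017). Pmepa1, a TGF-beta-induced inhibitor chosen after its values were seen, rose from a median of 451 to 542 CPM, a log2 fold change of 0.30 ± 0.040 with adjusted p = 0.000145. Fstl1, a secreted follistatin-like protein, was between 17.4 and 21 CPM (median 20.2) without PTSO and between 11.8 and 15 CPM (median 13.6) with it, a log2 fold change of -0.54 ± 0.075 with adjusted p = 0.000214. The groups did not overlap for any of these 4 genes. Over the whole list 2 of 21 tested members were called higher and 2 lower, with a median of -0.01. In the 10 libraries the values of Inhba, Smad7, Pmepa1 and Fstl1 were 0.35, 0.25, 0.23 and -0.52.

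Mitosis genes formed the list of more than 2 members with the largest share called. Of 20 tested, 11 were called higher and 0 lower, all 20 had a log2 fold change above 0, and the median was 0.24, against 0.00 over all genes tested. Bub1, a spindle checkpoint kinase, was between 94.3 and 129 CPM (median 118) without PTSO and between 128 and 154 CPM (median 137) with it, a log2 fold change of 0.31 ± 0.061 with adjusted p = 0.00842. For Ccnb1, the mitotic cyclin B1, the values were 122 to 157 CPM (median 153) without and 158 to 183 CPM (median 164) with PTSO, a log2 fold change of 0.19 ± 0.043 with adjusted p = 0.0116. Prc1, which bundles microtubules of the central spindle, had 0.21 ± 0.041 (adjusted p = 0.00397). Kif20a, a kinesin of cytokinesis, had 0.31 ± 0.066 (adjusted p = 0.0135), and 29.3% of its exon bases overlap Cdc23 on the other strand. The groups overlapped in all of these but Ccnb1. These rises were smaller without control libraries 2 and 3, in the fit that leans on the antigen-exposed cells. In that fit 10 members were called higher and the median was 0.15. The values of Bub1, Ccnb1, Prc1 and Kif20a were 0.21, 0.14, 0.16 and 0.20. The number called was 17 without control 1, 5 without control 2, 4 without PTSO 2, and 6 without PTSO 3 or without PTSO + T. muris 1.

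The promoter of Prc1 is shown because mitosis genes often share a CHR element, with the letters TTTGAA, near their start. It lies at chr7:80294201-80294500 on the plus strand of GRCm38.p6 (RefSeq), and capitals mark the CHR, which begins 5 bases before this start. A second start annotated for Prc1 has the same CHR, beginning 30 bases before it.
Prc1: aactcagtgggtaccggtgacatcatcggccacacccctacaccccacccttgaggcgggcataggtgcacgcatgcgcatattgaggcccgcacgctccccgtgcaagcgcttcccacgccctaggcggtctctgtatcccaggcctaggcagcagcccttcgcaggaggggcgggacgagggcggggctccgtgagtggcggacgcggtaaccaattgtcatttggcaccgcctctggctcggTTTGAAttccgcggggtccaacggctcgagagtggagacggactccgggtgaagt
On either strand, TTTGAA was found in 12% of the promoters of all genes tested, in 22.3% of those of genes called higher and in 10.9% of those of genes called lower. Among 18 promoters of the mitosis list it was in 72.2%. The CCAAT box was in 37.8% of all promoters, 46.6% of those called higher, 35.5% of those called lower and 88.9% of those of the mitosis list. Promoters were held for 10227 of the tested genes, 274 of the 361 called higher and 362 of the 483 called lower.

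Tubulin genes, the building blocks of microtubules, were read after their values were seen. Tubb5 rose from a median of 1490 to 1680 CPM (log2 fold change 0.25 ± 0.039, adjusted p = 0.000728), Tuba1c from 252 to 292 CPM (0.28 ± 0.048, adjusted p = 0.00175) and Tubb4b from 278 to 313 CPM (0.26 ± 0.047, adjusted p = 0.00262). No library overlapped in these 3 genes, and without control libraries 2 and 3 the values were 0.18, 0.20 and 0.19. Over 20 DNA replication genes the median was 0.15, and 0.06 without control libraries 2 and 3. Of these 20, 1 was called higher, against 2.36% of all genes tested, and 0 lower. That gene was Mcm3, a subunit of the replicative helicase (log2 fold change 0.26 ± 0.062, adjusted p = 0.0268), which was no longer called without control 2 (adjusted p = 0.0769), PTSO 2 (0.0719), PTSO 3 (0.0668) or PTSO + T. muris 1 (0.064). Without control 1, 10 members of this list were called, and without PTSO + T. muris 3 there were 3.

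The falls named for their size are the largest among called genes with a symbol, a mean log2 CPM of at least 1 and no overlap between the groups. Of the 13 called genes that were lower by at least 1 on the log2 scale, only Kcnj2 met these conditions. Vdr (ENSMUSG00000022479), the vitamin D receptor, was between 16.4 and 24.4 CPM (median 19.5) without PTSO and between 9.39 and 13 CPM (median 11.3) with it. It was 1.77-fold lower, a log2 fold change of -0.83 ± 0.097 with adjusted p = 4.37e-05, and -0.89 without control libraries 2 and 3. Of 15 vitamin D and nuclear receptor genes tested, 1 was called higher and 3 lower, against 2.36% and 3.16% of all genes tested, with a median of -0.03. Fgfr3, a fibroblast growth factor receptor, was between 5.06 and 7.89 CPM (median 6.74) without PTSO and between 3.66 and 4.89 CPM (median 3.84) with it, a log2 fold change of -0.72 ± 0.13 with adjusted p = 0.00195. Chodl, which encodes chondrolectin, had -0.81 ± 0.13 (adjusted p = 0.00106), and Galnt18, of a family that starts O-linked glycans, had -0.74 ± 0.098 (adjusted p = 0.000247). In the fit of 10 libraries the log2 fold changes of Fgfr3, Chodl and Galnt18 were -0.69, -1.02 and -0.59.

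Several other genes named for their fall lay between -0.71 and -0.64. Ak5, an adenylate kinase, had a log2 fold change of -0.71 ± 0.11 (adjusted p = 0.000801). Afap1l2, an adaptor of Src kinase signalling, had -0.70 ± 0.11 (adjusted p = 0.000455). Akap5, which anchors protein kinase A, had -0.67 ± 0.11 (adjusted p = 0.00274), and its PTSO libraries lay between 14.8 and 20.2 CPM against 21.4 to 39 CPM. Podnl1, a leucine-rich repeat protein, had -0.65 ± 0.13 (adjusted p = 0.00584), and Aspa, which hydrolyses N-acetylaspartate, had -0.64 ± 0.10 (adjusted p = 0.00169). With control libraries 2 and 3 left out the log2 fold changes were -0.79 for Ak5, -0.60 for Afap1l2, -0.47 for Akap5, -0.60 for Podnl1 and -0.46 for Aspa.

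The falls with the smallest p-values were moderate in size. Clca3b, of a family of secreted proteins linked to chloride conductance, was between 56 and 60.5 CPM (median 57.2) without PTSO and between 33.7 and 39.2 CPM (median 35.9) with it. Its log2 fold change was -0.67 ± 0.047 with adjusted p = 2.19e-08. Oxr1, a gene of oxidation resistance, was between 434 and 474 CPM (median 446) without PTSO and between 322 and 360 CPM (median 345) with it, a log2 fold change of -0.39 ± 0.031 with adjusted p = 1.78e-07. The ranges within each arm were narrow beside the gap between arms in both genes, which choosing genes by a small p-value favours. Plekhg4, a guanine nucleotide exchange factor, had -0.44 ± 0.045 (adjusted p = 8.33e-06), the RNA-binding protein gene Bicc1 had -0.34 ± 0.034 (adjusted p = 9.16e-06), and the organic anion transporter gene Slco4a1 had -0.40 ± 0.041 (adjusted p = 1.00e-05). Sorbs2, a cytoskeletal adaptor, had -0.40 ± 0.043 (adjusted p = 1.41e-05). Il33, the epithelial alarmin of type 2 immunity, was between 740 and 834 CPM (median 769) without PTSO and between 612 and 671 CPM (median 633) with it, a log2 fold change of -0.29 ± 0.034 with adjusted p = 5.10e-05. In the fit of 10 libraries these 7 values lay between -0.70 for Clca3b and -0.26 for Il33.

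Ion and water transport genes included 6 members called lower and 0 higher among 21 tested, with a median log2 fold change of -0.07. Atp1b1, the beta subunit of the sodium pump, was between 35.3 and 51.7 CPM (median 39) without PTSO and between 23.5 and 33.1 CPM (median 25.6) with it. The log2 fold change was -0.63 ± 0.075 with adjusted p = 5.85e-05, and it shares 18.7% of its exon bases with Nme7 on the other strand. Aqp1, a water channel, was between 100 and 133 CPM (median 107) without PTSO and between 63.8 and 85 CPM (median 71) with it, a log2 fold change of -0.61 ± 0.076 with adjusted p = 0.000585. The groups were separate in both genes. For Slc4a4, a sodium bicarbonate cotransporter, the log2 fold change was -0.35 ± 0.052 (adjusted p = 0.000557), and for Aqp5, a second water channel named after its values were seen, it was -0.35 ± 0.077 (adjusted p = 0.0137). In the fit of 10 libraries, 5 members were called lower, and the values for Atp1b1, Aqp1, Slc4a4 and Aqp5 were -0.53, -0.51, -0.26 and -0.49.

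Kcnj2, an inward rectifier potassium channel, had the largest fall named, from 1.67 to 4.34 CPM (median 2.41) without PTSO to 0.656 to 1.57 CPM (median 1.25) with it, a log2 fold change of -1.20 ± 0.29 with adjusted p = 0.0181. The call ended without PTSO 2 (adjusted p = 0.0525), PTSO 3 (0.055), T. muris 1 (0.0518) or PTSO + T. muris 1 (0.0534), and without control libraries 2 and 3 the value was -0.71 with adjusted p = 0.172.

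Adhesion genes were called in both directions. Epcam, the epithelial cell adhesion molecule, was between 478 and 551 CPM (median 525) without PTSO and between 587 and 657 CPM (median 614) with it, a log2 fold change of 0.26 ± 0.031 with adjusted p = 5.85e-05. Cldn4, a tight junction claudin, was between 816 and 894 CPM (median 865) without PTSO and between 969 and 1030 CPM (median 1010) with it, with 0.22 ± 0.031 and adjusted p = 0.000222. In the other direction, Cdh3, which encodes P-cadherin, was between 14.5 and 19.7 CPM (median 18.2) without PTSO and between 10.3 and 12.4 CPM (median 11.5) with it, a log2 fold change of -0.60 ± 0.086 with adjusted p = 0.000259. No library overlapped in these 3 genes. Tjp3, the junction scaffold ZO-3, had -0.41 ± 0.090 (adjusted p = 0.0125) with overlapping groups. The list of 16 tested genes for tight junctions and adhesion had 2 called higher and 4 lower, against 3 and 2 without control libraries 2 and 3. Their log2 fold changes in that fit were 0.24 for Epcam, 0.20 for Cldn4, -0.73 for Cdh3 and -0.27 for Tjp3.

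The epithelial transcription factor genes Hnf4a and Elf3 and the Wnt regulator Notum were lower. Hnf4a, the hepatocyte nuclear factor of gut and liver epithelium, was between 46.8 and 60.4 CPM (median 50) without PTSO and between 38.2 and 44.9 CPM (median 43.3) with it, a log2 fold change of -0.31 ± 0.057 with adjusted p = 0.00278. Elf3, an epithelial ETS factor, had -0.23 ± 0.043 (adjusted p = 0.00279) with overlapping groups. Notum, which inactivates Wnt ligands, was between 3.09 and 9.44 CPM (median 4.73) without PTSO and between 1.87 and 3.55 CPM (median 2.56) with it, a log2 fold change of -0.96 ± 0.20 with adjusted p = 0.0078. Notumos overlaps 29.4% of its exon bases on the other strand. Notum was the only member called among 12 Wnt target and stem cell genes tested, against 5.53% of all genes tested. A second was called lower without control 1 or without PTSO + T. muris 3. In the 10 libraries 1 other member was called higher. With control libraries 2 and 3 left out the values of Hnf4a, Elf3 and Notum were -0.23, -0.21 and -0.75.

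Of 25 cholesterol synthesis genes tested, 9 were called lower and 0 higher, 0 had a log2 fold change above 0, and the median was -0.13. Leaving out 1 library at a time gave from 6 called lower, without PTSO 2 or PTSO + T. muris 2, to 13, without control 1. Of the 9 calls, 6 were kept in all 12 of these fits. With control libraries 2 and 3 left out, 8 were called lower and the median was -0.09. Sqle, the squalene epoxidase, was between 173 and 221 CPM (median 181) without PTSO and between 148 and 171 CPM (median 156) with it, a log2 fold change of -0.26 ± 0.041 with adjusted p = 0.000731. Its groups did not overlap. Msmo1, a sterol methyl oxidase, had -0.19 ± 0.031 (adjusted p = 0.000983), and Hmgcs1, the synthase ahead of HMG-CoA reductase, had -0.23 ± 0.046 (adjusted p = 0.00451). In the 10 libraries the values were -0.19 for Sqle, -0.17 for Msmo1 and -0.16 for Hmgcs1.

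Promoters were held for 17 of the 25 genes of this list and for 5 of the 9 called lower. Among these, the promoter of Hmgcs1 holds the only match to the letters TCACNCCAC, a form of the sterol regulatory element that SREBP factors bind. It lies at chr13:119690101-119690400 on the plus strand of GRCm38.p6 (RefSeq), and capitals mark the match, which begins 137 bases before the start.
Hmgcs1: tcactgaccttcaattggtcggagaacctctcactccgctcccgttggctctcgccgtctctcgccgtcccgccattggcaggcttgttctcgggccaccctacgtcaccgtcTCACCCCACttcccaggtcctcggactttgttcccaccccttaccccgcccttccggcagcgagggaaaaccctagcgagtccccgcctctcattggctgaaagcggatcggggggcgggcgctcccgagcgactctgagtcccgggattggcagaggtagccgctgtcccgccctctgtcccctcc
The letters were found on either strand in 4.55% of 22 promoters of the list, 1.18% of those of all genes tested, 0.857% of those of genes called higher and 2.26% of those of genes called lower. The CCAAT box, whose factor NF-Y acts with SREBP, was in 77.3% of the promoters of the list.

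Stress programmes other than HSP70 and selenoproteins moved in both directions. Of 22 genes of the ATF4 integrated stress response, 3 were called higher and 3 lower, and the median was 0.07, or -0.05 without control libraries 2 and 3, where 3 were higher and 6 lower. Ppp1r15a, which encodes the GADD34 phosphatase subunit that reverses eIF2 phosphorylation, was between 50.9 and 61.8 CPM (median 57) without PTSO and between 69.6 and 81.3 CPM (median 75.2) with it. The log2 fold change was 0.43 ± 0.051 with adjusted p = 4.37e-05. Ddit4, an inhibitor of mTOR signalling, had 0.27 ± 0.041 (adjusted p = 0.000489). Asns, the asparagine synthetase, was between 244 and 307 CPM (median 266) without PTSO and between 199 and 236 CPM (median 211) with it, with -0.33 ± 0.051 and adjusted p = 0.00103. Nupr1, a stress-induced nuclear protein, had -0.29 ± 0.043 (adjusted p = 0.000365). Gadd45a, a gene induced by DNA damage and growth arrest, rose by 0.38 ± 0.047 on the log2 scale (adjusted p = 7.05e-05), with no overlap. It was named from a list of p53 targets. Of 17 of these tested, 2 were called higher and 0 lower, against 2.36% and 3.16% of all genes tested, and the list median was -0.01. In the 10 libraries the values were 0.37 for Ppp1r15a, 0.33 for Ddit4, -0.26 for Asns, -0.27 for Nupr1 and 0.36 for Gadd45a.

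Of 34 NRF2 target and glutathione genes tested, 2 were called higher and 2 lower, against 2.36% and 3.16% of all genes tested. The median of the list was -0.05. In the fit of 10 libraries, 1 was higher and 5 were lower. Besides Txnrd1, Hmox1, the heme oxygenase, was called higher (log2 fold change 0.25 ± 0.066, adjusted p = 0.03), with overlapping groups of 33.3 to 51.9 CPM and 48.4 to 56.8 CPM. Its call ended without control 2, without any 1 of the 3 PTSO libraries, without T. muris 3 and without PTSO + T. muris 1 (adjusted p = 0.062 to 0.0882), and it was 0.13 with adjusted p = 0.15 without control libraries 2 and 3. Gsta4, a glutathione transferase for lipid peroxidation products, had -0.42 ± 0.097 (adjusted p = 0.013), and -0.49 without control libraries 2 and 3. The call count of the list was 2, 1 in each direction, without control 2, PTSO 2, PTSO 3, T. muris 3 or PTSO + T. muris 1. The antioxidant response element letters TGACNNNGC were in 14.3% of the promoters of all genes tested, 17.7% of those of genes called higher and 14.6% of those of genes called lower. Endoplasmic reticulum folding genes had 2 of 20 called lower, against 3.16% of all genes tested, and 0 higher. Without control 1, 5 were called lower. Calr, the calcium-binding chaperone calreticulin, had -0.13 ± 0.030 (adjusted p = 0.0123), and Herpud1, of endoplasmic reticulum-associated degradation, -0.17 ± 0.035 (adjusted p = 0.00654), with -0.14 for each in the fit of 10 libraries.

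Ceruloplasmin, the copper-bearing ferroxidase encoded by Cp, was between 87.8 and 148 CPM (median 97.9) without PTSO and between 50.7 and 88.3 CPM (median 72.2) with it. The log2 fold change was -0.63 ± 0.070 with adjusted p = 0.000144, and -0.53 without control libraries 2 and 3. PTSO library 1, at 88.3 CPM, lay just above the 3 T. muris libraries, at 87.8 to 88.1 CPM, and every other PTSO library lay below all libraries without PTSO. The iron and ceruloplasmin list had 1 of 13 tested members called higher and 3 lower, against 2.36% and 3.16% of all genes tested, with a median of 0.03. Among 20 interferon-stimulated genes, 2 were called lower, against 3.16% of all genes tested, and 0 higher. The median of the list was -0.21, or -0.13 with 1 called lower without control libraries 2 and 3. The count was 5 without control 1 and 0 without PTSO + T. muris 1 or without PTSO + T. muris 2. It was 1 without control 2, control 3, T. muris 3 or any of the 3 PTSO libraries. Neither called gene of this list was called in every one of the 12 fits that left out a library. Antigen presentation genes had 2 of 12 called lower and 0 higher, with 4 lower without control 1. The count was 1 without control 2 or 3, without any 1 of the 3 PTSO libraries or the 3 T. muris libraries, or without PTSO + T. muris 1. Of NF-kB targets and cytokines, 1 of 24 was called higher and 4 lower, and Il33 was the only one called in all 12 of those fits. The number called fell to 1 without PTSO 3, to 2 without control 2, PTSO 1, PTSO 2 or PTSO + T. muris 1, and to 3 without any 1 of the T. muris libraries or without PTSO + T. muris 2. It was 4 without control 3, and it rose to 7 without control 1 or without PTSO + T. muris 3.

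Some lists held few calls or none, against 5.53% called over all genes tested. By edgeR, 0 of 24 ribosomal protein genes and 0 of 21 proteasome subunits were called, with medians of -0.01 and 0.00, although 3 ribosomal protein genes were called higher without control 1. Of 22 glycolysis and hypoxia genes, 1 was called higher, Hk2, which encodes the hexokinase of growing cells (log2 fold change 0.18 ± 0.038, adjusted p = 0.00662, and 0.22 in the fit of 10 libraries). A second was called without PTSO + T. muris 3. With control libraries 2 and 3 left out, 10 members of that list were called higher, and the median moved from 0.05 to 0.12. Of 5 mucus and goblet cell genes and 2 leukocyte markers tested, 0 were called by edgeR. The summed level of the 2 tested leukocyte markers was 3.43 to 6.33 CPM without PTSO and 3.18 to 5.86 CPM with it.

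**Figure D3:**
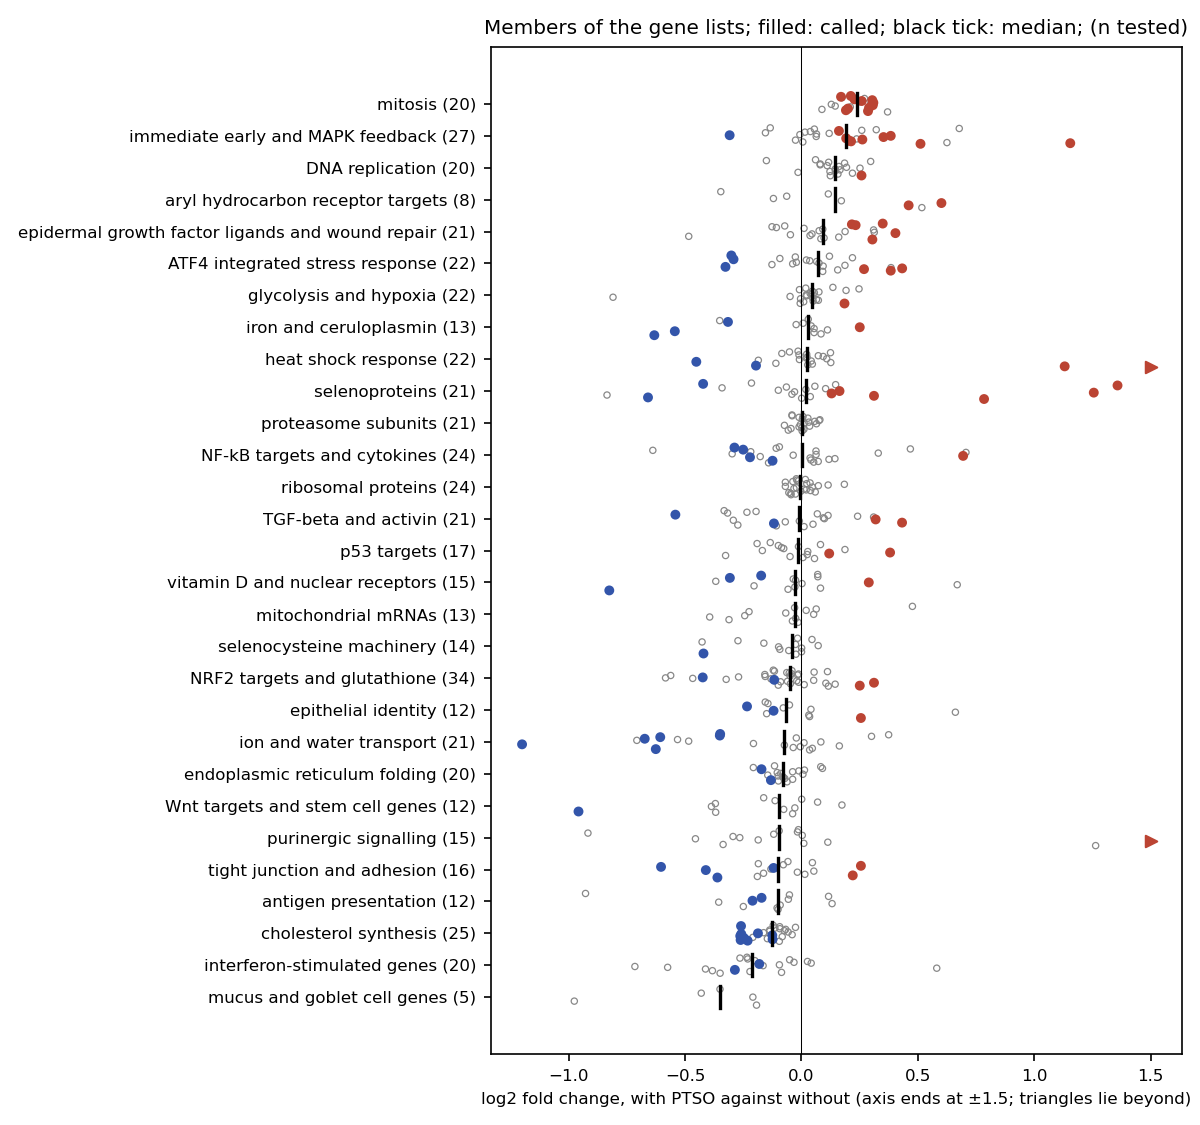
Each circle is the log2 fold change for PTSO of 1 tested member of a gene list (number tested in brackets), filled where called, and the black tick is the list median. All 20 mitosis genes lie right of zero and all 25 cholesterol synthesis genes lie left of it, and the triangles are Hspa1a (5.81) and P2rx7 (2.87), beyond the axis.

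The additive model assumes that PTSO shifts a gene equally with and without antigens. In a model with an interaction term, edgeR called 0 genes for a difference between the backgrounds, with a smallest adjusted p of 0.609. At an unadjusted p under 0.05 there were 1181 genes (7.74%), and DESeq2 called 4. All 844 called genes had the same sign in both backgrounds, which choosing genes by a shared coefficient favours. In the 4-group fit, PTSO against control gave 802 calls (5.25% of the genes tested), and PTSO + T. muris against T. muris gave 94 (0.616%). When each background was fitted alone, the order turned round, with 51 calls without antigens and 497 with them. Control libraries 2 and 3 are part of the comparison without antigens.

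For several genes with small p-values the backgrounds gave close values. The log2 fold change of Selenoh was 1.26 ± 0.085 without antigens and 1.25 ± 0.085 with them. That of Gpx1 was 0.76 ± 0.048 and 0.81 ± 0.048, and that of Lama3 was 0.35 ± 0.052 and 0.35 ± 0.053. For Oxr1 it was -0.39 ± 0.044 and -0.38 ± 0.044. Other genes with small p-values differed more between the backgrounds, without passing the interaction test after adjustment. Selenow had 1.26 ± 0.083 without antigens and 1.46 ± 0.084 with them, Clca3b had -0.59 ± 0.062 and -0.76 ± 0.062, and Slco4a1 had -0.32 ± 0.053 and -0.48 ± 0.053 (adjusted p of the interaction 0.678, 0.651 and 0.644 by edgeR's quasi-likelihood F-test). P2rx7 had 2.42 ± 0.36 without antigens and 3.35 ± 0.37 with them, Vdr had -0.63 ± 0.12 and -1.02 ± 0.12, and Kcnj2 had -1.65 ± 0.38 and -0.73 ± 0.38. The mitosis list had a median of 0.31 without antigens and 0.15 with them.

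The 4 smallest interaction p-values belonged to Tmem150a, Gpx4-ps2, Cdkn2a and Il24, none of which was called for PTSO in the additive fit. Tmem150a, a membrane protein, was at -4.24 ± 0.72 without antigens and 1.86 ± 0.62 with them. Its libraries ranged from 0.131 to 6.61 CPM. Il24, a cytokine of the interleukin-10 family, was at 0.84 ± 0.18 and -0.19 ± 0.17. Cdkn2a, a cell cycle inhibitor locus, was at -0.22 ± 0.059 and 0.14 ± 0.059. For the pseudogene Gpx4-ps2 the values were -0.15 ± 0.060 and 0.25 ± 0.060, and reads of such a copy cannot be kept apart from those of Gpx4 with certainty.

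**Figure D4:**
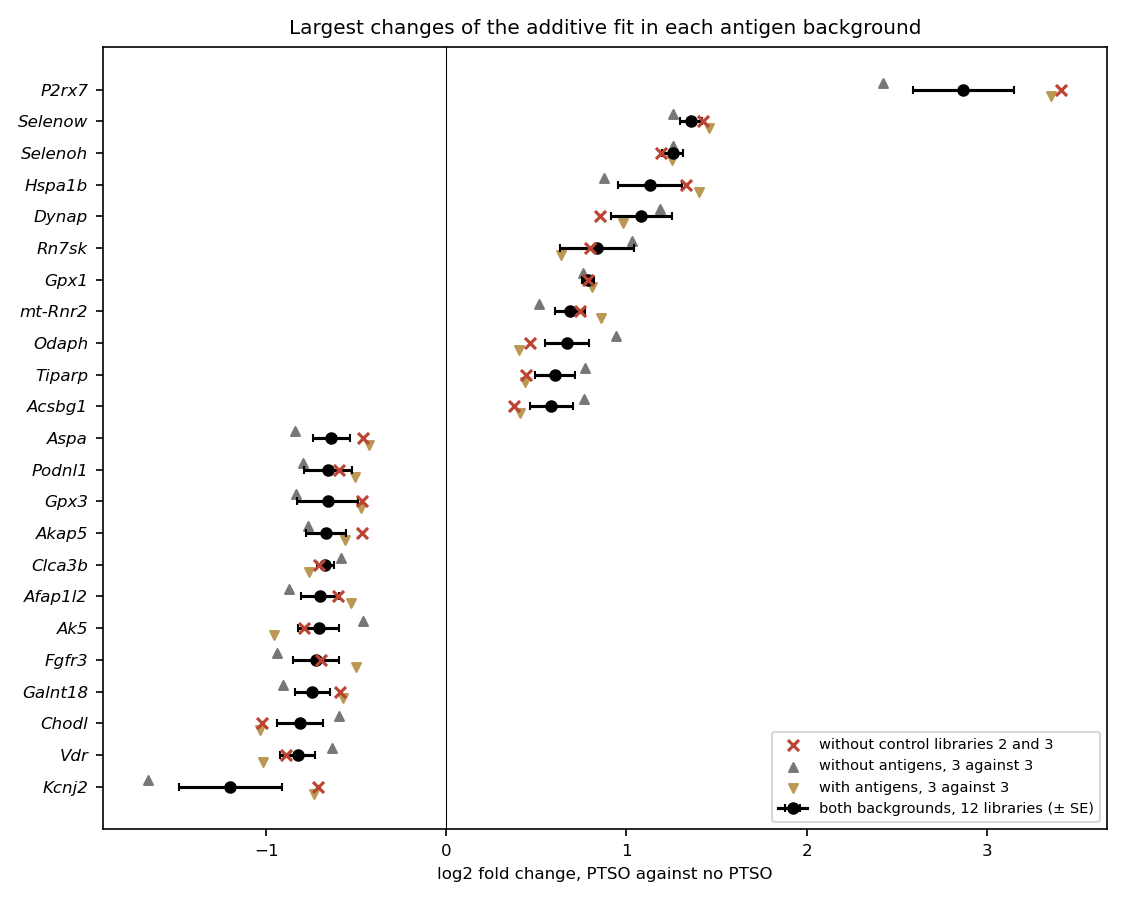
Log2 fold changes for PTSO of the largest rises and falls among the named genes other than Hspa1a, with black circles for the fit of 12 libraries (± SE), crosses for the fit without control libraries 2 and 3, and triangles for each antigen background. All values of a gene lie on the same side of zero, with P2rx7 at 2.42 without and 3.35 with antigens and Kcnj2 at -1.65 and -0.73.

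The number of genes called changed with the libraries that entered the fit. Without control libraries 2 and 3, 695 genes were called (4.55%), 286 higher (1.87%) and 409 lower (2.68%). Of the 844 genes and these 695, 495 were shared, 207 higher and 288 lower. All 844 kept their sign, and 200 genes were called only in the smaller set. Leaving out 1 library at a time gave between 422 calls, without PTSO 2, and 1669, without control 1. The other counts that moved by more than 1.5 times were 507 without control 2, 500 without PTSO 3 and 483 without PTSO + T. muris 1. Of the 844 genes, 372 were called in all 12 of these fits, 150 higher and 222 lower. They include Gpx1, Selenow, Selenoh, Txnrd1, Sephs2, Hspa1a, Hspa1b, P2rx7, Vdr, Clca3b, Oxr1 and Il33.

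**Figure D5:**
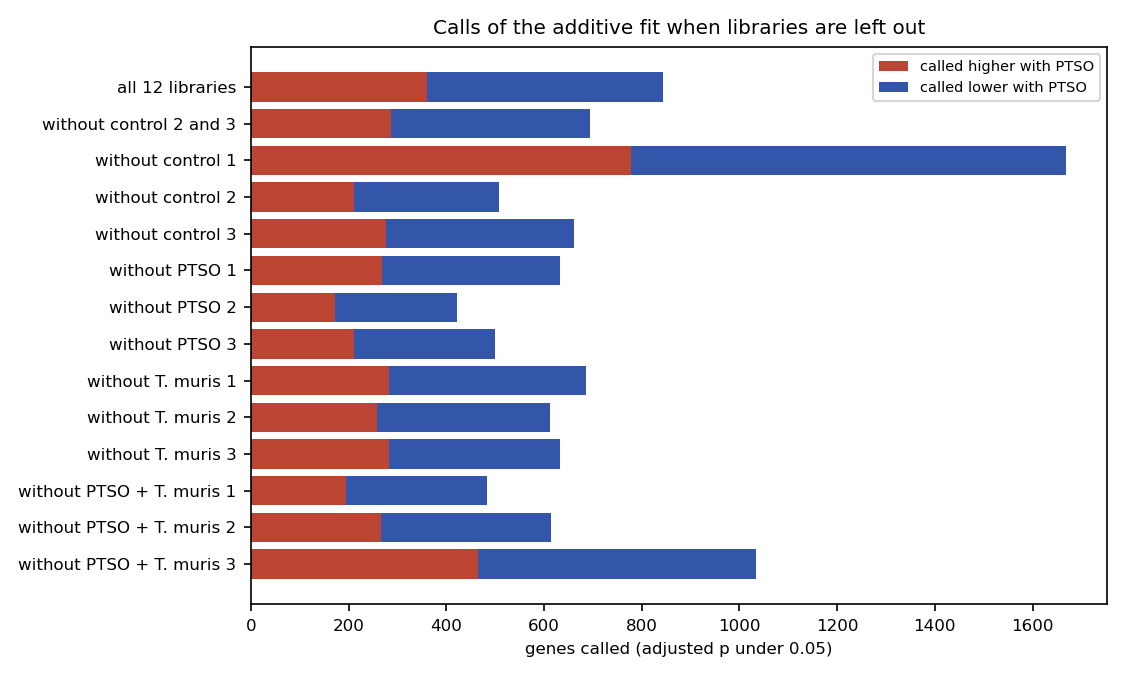
Number of genes called higher (red) and lower (blue) with PTSO at an adjusted p under 0.05, for all 12 libraries and with libraries left out. The count is 844 with all libraries, 695 without control libraries 2 and 3, and ranges from 422 without PTSO 2 to 1669 without control 1.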

How the data were processed

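The authors deposited a table of raw read counts with 1 column per library and 1 Ensembl gene identifier per line, used here as counts. HISAT, DESeq2 and the build mm39 are named in the submitters' processing notes, while the counting program, the annotation release and whether strand was used are not given in any source used here. Symbols were matched by identifier to a reference annotation (53620 of 55137 identifiers found), and because builds differ no gene coordinates are given, other than those of RefSeq promoter sequences on GRCm38.p6.

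filterByExpr of edgeR 4.0.16 (R 4.3.3) kept 15267 genes with 99.931% of the counts. Libraries were scaled by TMM, and a negative binomial model with PTSO and antigen exposure as terms was fitted with robust dispersion (9 residual degrees of freedom, common biological coefficient of variation 9.1%). The PTSO coefficient was tested with the quasi-likelihood F-test and Benjamini-Hochberg adjustment over all genes tested, with calls at an adjusted p under 0.05. Each SE is approximate, the size of the log2 fold change over the root of F. The code was tested on simulated data. Repeats used the same genes, except where no filter was applied, and included DESeq2 1.42.0. Total counts per library, 16.7 to 34.5 M, set the counting precision.

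Named genes are, among called genes with a symbol, a mean log2 CPM of at least 1 and no overlap between the arms, the 12 largest rises and falls and the 8 smallest p-values in each direction. To these come up to 4 called members of each gene list and the 4 smallest interaction p-values, and genes named after their values were seen are marked as such. List members named by this rule whose call ended when a library was left out are mostly given as counts, and a few named by it are not reported here. The comparison and the 32 gene lists were chosen with earlier results of these data known. Motifs were searched on both strands from 250 bases before to 50 after a start, as a description. Figures were drawn with matplotlib 3.10.9.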

Additional observations from a re-analysis of the deposited data

Results flagged for a closer look

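Within the 6 libraries with PTSO and the 6 without, each named gene was checked for a single library far from the other 5, by the gap to the nearest library as a share of the whole range (Dixon's test). Chance flags about 1 in 20 groups, and 6 of 226 groups were marked. Among the libraries with PTSO, Fgfr3 was 4.89 CPM in PTSO + T. muris 2, with the nearest library at 3.9 CPM. Sephs2 was 54.4 CPM in PTSO 1, with the nearest at 46.1 CPM, and Elf3 was 104 CPM in the same library, with the nearest at 93 CPM. Atf3, a stress-induced transcription factor gene chosen after its values were seen, was 27.5 CPM in PTSO + T. muris 3, below the nearest at 32.5 CPM. Among the libraries without PTSO, Notum was 9.44 CPM in control 3, with the nearest at 5.03 CPM. Hfm1, a meiotic DNA helicase gene chosen after its values were seen, was 0.0602 CPM in T. muris 3 and 0 in the other 5 libraries without PTSO, against 0.305 to 0.656 CPM in the 6 with it. In each of these genes the call for PTSO was kept whichever 1 library was left out.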

How the results depend on the processing

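All 108 called genes named here kept their direction under every alternative that gave a value for them. The 844 calls (361 higher, 483 lower) became 1501 (703 and 798) with no filter on low counts, 1370 (632 and 738) with the DESeq2 Wald test and 328 (129 and 199) without the antigen term. DESeq2 size factors gave 841, and an interaction term in the model 994. Leaving out 1 library at a time gave 422 to 1669 calls (172 to 778 higher, 250 to 891 lower). Only the libraries without antigens gave 51 (22 and 29), and only those with antigens 497 (201 and 296), against 802 and 94 for these contrasts in the 4-group fit. The interaction gave 0 calls, but 1 without control libraries 2 and 3, 4 with the DESeq2 Wald test and 1 with the replicate block. The cause of these shifts was not tested. The filter, the antigen term and the number of libraries differ by construction. A repeat without control 2, control 3 and PTSO 2 was chosen after seeing the data, as were list counts without control 1.

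Libraries with the same replicate number correlated at -0.058 to 0.098 in their deviations from the group means, so the numbers were not taken to pair samples. With the replicate block 820 genes were called, and 8 of 12 libraries correlated best with their own number, a hint from the data and not from the design. Genes under about 1 CPM, such as Hfm1 and Hspa1a without PTSO, rest on few counts, which limits the precision of their fold changes.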
